A study of Mus musculus with 21 samples.

Results

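The Krüppel-like factors are zinc finger transcription factors that bind CACCC and GC-rich sites in the promoters and enhancers of their target genes. Klf2, Klf4, Klf5 and Klf6 act largely as activators, Klf3 recruits the CtBP corepressors, and Klf9, Klf10, Klf11 and Klf13 recruit the Sin3 corepressor. Several members are immediate early genes that rise and decay quickly after a stimulus, while Klf9 and Klf15 are known in muscle as targets of the glucocorticoid receptor, and Klf15 controls amino acid and lipid use there.

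Here 10 members, Klf2, Klf3, Klf4, Klf5, Klf6, Klf9, Klf10, Klf11, Klf13 and Klf15, were taken by symbol from the 53738 symbols of an RNA-seq expression table. The rule uses symbols and no expression threshold, but the set was proposed with earlier results of these data known. On build GRCm39, Klf2 lies at chr8:73072726-73075502, Klf4 at chr4:55527139-55532528, Klf5 at chr14:99536086-99552473 and Klf6 at chr13:5911481-5920393, and all 10 are annotated as protein-coding. The table lists 17 symbols from Klf1 to Klf17, so 7 family members lie outside this set. All libraries came from quadriceps muscle of male C57/Bl6 mice aged 22 to 26 weeks. Sedentary mice were the baseline without the exhaustive bout. Untrained mice ran on a treadmill to exhaustion in a test of rising speed, and trained mice did this test after 12 weeks of voluntary wheel running. The paper reports better performance of trained mice in such tests, so their bout may have been longer or faster. It also describes treadmill acclimatization before the tests, without saying which groups received it. Muscles of the exercised mice were collected 0, 6 or 72 h after the bout, which gives 7 groups of 3 libraries each. Values are TPM, the abundance of a transcript relative to the library total, which are corrected for transcript length and can therefore be compared between genes. Quadriceps RNA is a mixture of cell types, so fewer cells of a type and less RNA per cell cannot be told apart.

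One library was deposited in both 0 h groups: replicate 1 of untrained 0 h and replicate 1 of trained 0 h hold identical values for every symbol, which leaves 20 distinct libraries. Results at 0 h hold this library in each 0 h group unless stated otherwise. Counts of called members at 0 h are also given without it and for the 5 distinct libraries as 1 joint group. Library totals lay between 997304 and 997921 TPM, between 11048 and 11890 symbols reached 1 TPM, and transcripts of the mitochondrial genome took 37.7% to 48.0% of the total. The read depth behind each value is unknown, so no counting error can be given. The muscle fibre markers (Acta1, Ckm, Myh4, Myh1, Mb, Tnnt3) summed to 53770 to 66077 TPM in the group means.

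Promoters of 8 of the 10 members were present in the RefSeq promoter table (build GRCm38.p6, so these positions cannot be set beside the GRCm39 ones), the exceptions being Klf5 and Klf10. The 250 bases before the annotated start are shown for Klf2 and Klf4, which rose together most strongly after the bout, for Klf6, which rose with them, and for Klf15, which was called in no comparison. Klf2 lies at chr8:72318812-72319061 (plus strand), Klf4 at chr4:55532476-55532725 (minus strand), Klf6 at chr13:5861239-5861488 (plus strand) and Klf15 at chr6:90462326-90462575 (plus strand), each window ending at the base before the start. Capitals mark matches on either strand to TGACG (the core of the cAMP response element, CRE), CACGTG (E-box), CACCC (the KLF site itself), CCAAT or the heat shock element TTCNNGAA, and GC boxes (GGGCGG) are left in lower case.
Klf2: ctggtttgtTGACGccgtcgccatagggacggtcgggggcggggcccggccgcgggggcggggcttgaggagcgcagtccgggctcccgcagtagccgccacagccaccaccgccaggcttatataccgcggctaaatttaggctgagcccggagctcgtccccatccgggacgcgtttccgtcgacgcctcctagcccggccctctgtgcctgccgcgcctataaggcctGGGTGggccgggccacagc
Klf4: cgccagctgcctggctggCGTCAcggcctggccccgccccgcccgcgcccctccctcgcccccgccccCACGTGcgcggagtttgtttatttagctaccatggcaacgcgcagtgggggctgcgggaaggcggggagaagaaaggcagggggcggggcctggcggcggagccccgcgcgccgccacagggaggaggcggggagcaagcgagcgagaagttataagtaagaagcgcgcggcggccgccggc
Klf6: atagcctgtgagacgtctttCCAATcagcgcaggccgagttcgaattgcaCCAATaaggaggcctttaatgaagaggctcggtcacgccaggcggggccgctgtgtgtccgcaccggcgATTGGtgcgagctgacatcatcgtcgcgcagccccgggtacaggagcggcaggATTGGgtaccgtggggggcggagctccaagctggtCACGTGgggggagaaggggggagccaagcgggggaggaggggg
Klf15: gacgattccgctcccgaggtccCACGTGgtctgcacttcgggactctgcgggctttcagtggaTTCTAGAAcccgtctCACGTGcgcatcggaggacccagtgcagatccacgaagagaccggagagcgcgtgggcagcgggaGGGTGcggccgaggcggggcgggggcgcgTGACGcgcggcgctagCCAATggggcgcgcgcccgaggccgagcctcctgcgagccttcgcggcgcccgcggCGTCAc

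The E-box, the site bound by CLOCK and BMAL1 and by MYC and USF factors, was found in 4 of the 8 member promoters (Klf4, Klf6, Klf11 and Klf15) and in 6.02% of 32851 mouse promoters of the same length. The GC box, bound by SP and KLF proteins, was found in 7 of 8, all but Klf9, against 32.7% of all promoters. The short CRE core, which is also part of the full site, occurred in 5 of 8 (Klf2, Klf4, Klf9, Klf13 and Klf15) against 17.8%. The KLF site occurred in 5 of 8 (Klf2, Klf3, Klf9, Klf13 and Klf15) against 52.0%, and CCAAT in 5 of 8 against 33.8%. The heat shock element matched in Klf15 alone of the 8, against 7.17% of all promoters. No member window matched the full CRE (TGACGTCA, 1.55% of promoters), the AP-1 site (TGACTCA, 4.46%), the TATA box (TATAAA, 12.4%) or the CArG box (1.47%). Member windows were 59.6% to 78.4% GC against a median of 52.4% over all promoters, so GC-rich motifs are found in them more easily. A match is a run of letters, not a measured binding site. The promoters of Klf4, Klf6 and Klf15 each held an E-box, although Klf4 and Klf6 rose after the bout and Klf15 was not called.

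In sedentary muscle Klf9 was the most abundant member at 23.4 ± 2.28 TPM (SD, n = 3 here and for each group mean below) and made up 45.2% ± 1.98 of the summed TPM of the 10. Klf15 followed at 9.04 ± 0.839 and Klf10 at 4.57 ± 1.03 TPM. Klf6 (3.20 ± 0.671), Klf13 (2.95 ± 0.401) and Klf2 (2.91 ± 1.23) lay close together, with Klf3 (2.03 ± 0.140) and Klf4 (2.01 ± 0.511) below them. Klf11 (0.945 ± 0.144) and Klf5 (0.709 ± 0.107) were lowest. The sum over the 10 members was 51.7 ± 4.43 TPM in sedentary muscle. At 0 h it reached 129 ± 13.3 TPM in untrained mice and 143 ± 6.18 TPM in trained mice, or 122 and 143 TPM without the shared library. By 6 h it was 63.5 ± 12.2 (untrained) and 58.7 ± 0.355 (trained) TPM, and at 72 h 51.7 ± 3.79 and 64.1 ± 0.947 TPM. At 0 h Klf2 alone made up 24.3% ± 1.61 of the sum in untrained and 23.2% ± 2.58 in trained muscle, and the share of Klf9 was 19.1% ± 1.55 and 19.9% ± 2.21. The composition of the family pool therefore differed at 0 h, when Klf2 and Klf4 exceeded or matched Klf9, from that at every other time, when Klf9 led.

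**Figure D1:**
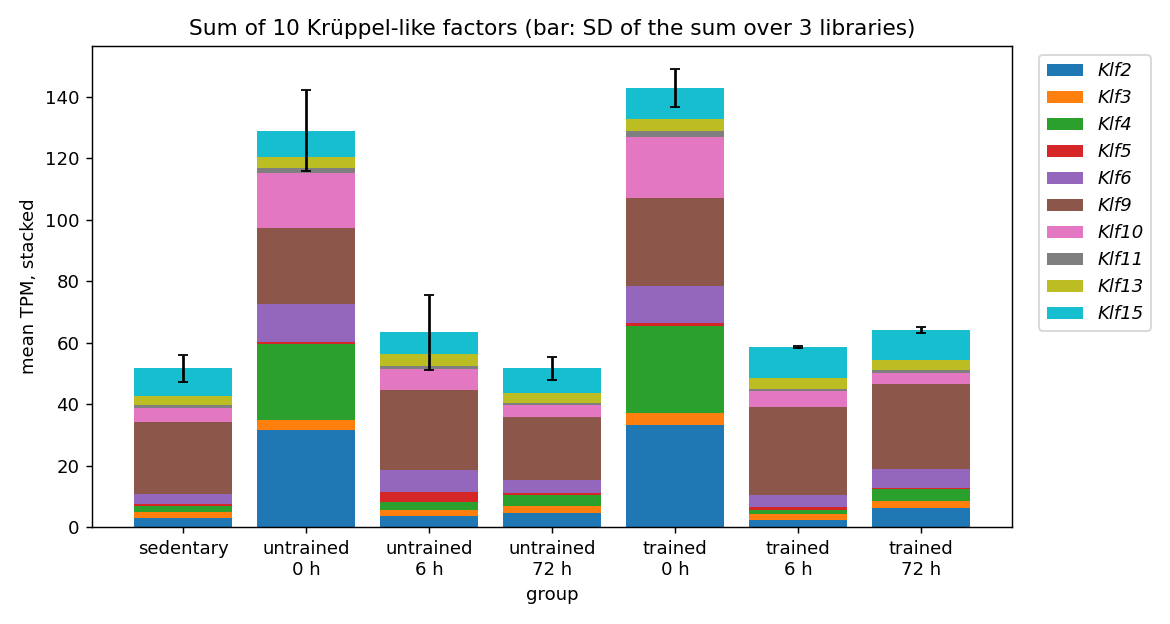
Stacked mean TPM of the 10 members (y axis) in the 7 groups (x axis), with colours for members and error bars for the SD of the sum over 3 libraries. The 0 h bars reach 129 and 143 TPM against 51.7 TPM in sedentary muscle, mostly through Klf2, Klf4, Klf6 and Klf10.

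**Figure D2:**
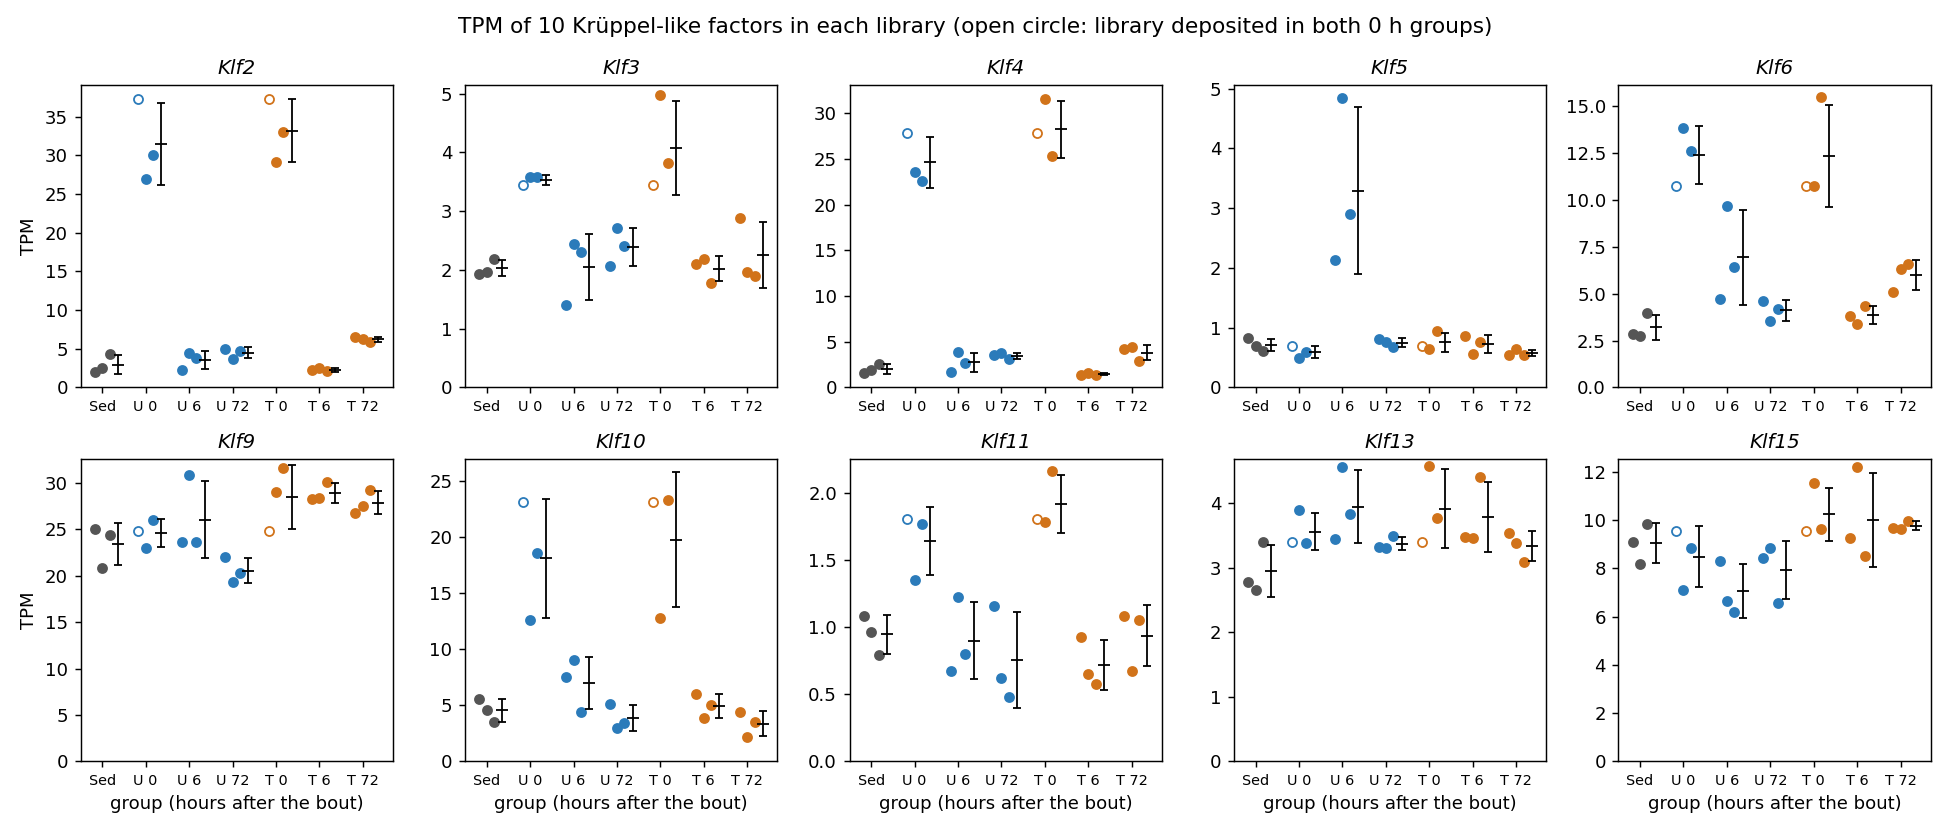
TPM (y axis) of each member in every library, by group (x axis: sedentary, untrained U and trained T at 0, 6 and 72 h), with the group mean and SD (n = 3) as a bar to the right of the points and the library shared by the 0 h groups as an open circle. Klf2, Klf3, Klf4, Klf6, Klf10 and Klf11 are highest at 0 h, and Klf5 is highest in untrained muscle at 6 h.

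The first comparison set muscle at 0 h after an exhaustive bout against sedentary muscle. No library came from trained mice without a bout, so in trained mice effects of the bout and of training cannot be told apart. Klf2, Klf4, Klf6, Klf10 and Klf3 were higher at 0 h than in sedentary muscle in both untrained and trained mice. Group means of Klf2 and Klf4 were 10.8 to 14.1 times their sedentary means, those of Klf6 and Klf10 3.85 to 4.32 times, and those of Klf3 1.74 and 2.01 times. Differences were tested with limma on log2(TPM + 0.5) over the 11819 symbols with a mean of at least 1 TPM. Calls needed both an adjusted p under 0.05 (Benjamini-Hochberg, over all tested genes) and a change of at least 1.5-fold on that scale, which understates changes of low genes. All 10 members passed the filter on low values. Klf5 and Klf11 did so only through the groups in which they were high: outside untrained 6 h Klf5 averaged 0.684 TPM, and outside 0 h Klf11 averaged 0.850 TPM. In untrained muscle at 0 h 5 members were called higher and none lower, beside 2.97% of all tested genes called higher. In trained muscle 6 were called higher, the sixth being Klf11, beside 3.39%. In the joint 0 h group the same 6 were called, beside 3.36%. Without the shared library 4, 5 and 5 members were called. The median log2 change of the 10 members was 0.62 in untrained and 0.79 in trained muscle, beside 0.10 and 0.13 for all tested genes. The latter shift depended on scaling. Median-of-ratios scaling brings it to about 0.00 by construction. Rescaling without the mitochondrial genome and the 10 most abundant genes gave -0.05 in untrained and -0.04 in trained muscle. Median-of-ratios scaling also moved the split of all calls. In untrained muscle the split went from 351 higher and 73 lower to 264 and 96. In trained muscle it went from 401 and 41 to 276 and 70.

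Klf2, which maintains endothelial quiescence and is induced by laminar flow, measured 1.97, 2.46 and 4.30 TPM in the sedentary libraries. At 0 h it measured 37.3 TPM in the shared library, 27.0 and 30.1 TPM in the other untrained and 29.2 and 33.0 TPM in the other trained libraries. All 5 lay far above every sedentary library. The log2 change was 3.27 (SE 0.23, adjusted p = 1.77e-07) in untrained and 3.36 (SE 0.23, adjusted p = 1.27e-07) in trained muscle, and 3.15 and 3.27 without the shared library. Klf4, one of the pluripotency reprogramming factors and an immediate early gene, measured 1.58, 1.88 and 2.57 TPM in sedentary libraries. At 0 h the shared library held 27.8 TPM, the other untrained libraries 23.6 and 22.6 TPM and the other trained libraries 31.6 and 25.4 TPM. The log2 change was 3.34 (SE 0.20, adjusted p = 4.43e-08) and 3.53 (SE 0.20, adjusted p = 1.90e-08). Ranked by rise among the 11819 tested genes, Klf4 stood 27th in untrained and 25th in trained muscle, and Klf2 31st and 29th. Every alternative kept both calls, and so did every fit that left out 1 library.

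Klf6, a factor linked to tissue injury and to macrophage activation, measured 2.76 to 3.97 TPM in sedentary muscle. At 0 h it measured 10.8 TPM in the shared library, 13.8 and 12.6 TPM in the other untrained and 10.7 and 15.5 TPM in the other trained libraries. The groups did not overlap, with a log2 change of 1.81 (SE 0.21, adjusted p = 2.79e-05) in untrained and 1.79 (SE 0.21, adjusted p = 3.32e-05) in trained muscle. Klf10, first named as a TGF-beta-inducible early gene, was the most variable of the risen members. It measured 3.55 to 5.61 TPM in sedentary muscle and 23.2 TPM in the shared 0 h library, with 12.6 and 18.6 TPM in the other untrained and 12.8 and 23.3 TPM in the other trained libraries. The log2 change was 1.85 (SE 0.31, adjusted p = 0.00118) in untrained and 1.97 (SE 0.31, adjusted p = 0.000647) in trained muscle. Without the shared library it was 1.66 (adjusted p = 0.0121) and 1.83 (adjusted p = 0.00579).

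Klf3, the CtBP-recruiting repressor, rose far less. It measured 1.93, 1.97 and 2.19 TPM in sedentary muscle, 3.44 TPM in the shared 0 h library, 3.58 and 3.58 TPM in the other untrained and 4.97 and 3.83 TPM in the other trained libraries. The log2 change was 0.67 (SE 0.16, adjusted p = 0.0187) in untrained and 0.84 (SE 0.16, adjusted p = 0.00389) in trained muscle. The untrained call was lost without the shared library (adjusted p = 0.0537), without sedentary replicate 1 (0.0715) or 2 (0.0712), and without untrained 0 h replicate 2 (0.0526) or 3 (0.0552). It was also lost under either other scaling, with log2 changes of 0.57 and 0.58, and with pseudocount 1 (0.583, under the fold limit). The trained call was kept in 7 of 8 other settings (highest adjusted p = 0.0501) and in all 6 fits with 1 library left out. Klf11, the close relative of Klf10, measured 0.793 to 1.08 TPM in sedentary muscle and 1.35 to 2.16 TPM in the 5 libraries at 0 h. These ranges did not overlap. In the joint group the log2 change was 0.65 (adjusted p = 0.0304). That call was kept without untrained 0 h replicate 2 or 3 and lost without any 1 of the other 6 libraries, among them the shared one (adjusted p = 0.0543 to 0.0926). Pseudocount 1 left it under the fold limit (0.51), and it was also lost with no filter on low values (adjusted p = 0.0524), under median-of-ratios scaling (0.0775) and when values were rescaled without the mitochondrial genome and the 10 most abundant genes (0.125). By group the log2 change was 0.56 (SE 0.20, adjusted p = 0.0951) in untrained and 0.74 (SE 0.20, adjusted p = 0.0275) in trained muscle. In trained muscle the same 4 fits gave a log2 change of 0.58 with pseudocount 1, and adjusted p-values of 0.0477 (kept), 0.0797 and 0.136. The trained call was lost with any 1 of the 6 libraries of the comparison left out, namely sedentary replicates 1 (adjusted p = 0.0546), 2 (0.0767) and 3 (0.0634) and trained 0 h replicates 1 (0.0616), 2 (0.0556) and 3 (0.0826).

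The other members were not called at 0 h. Klf9 measured 22.9 to 31.6 TPM at 0 h against a sedentary mean of 23.4 TPM, with log2 differences of 0.07 (untrained, which ranged from -0.10 to 0.07 over the other settings) and 0.28 (trained). Klf13, known as an activator of the chemokine gene Ccl5 in T cells, measured 3.38 to 4.58 TPM against 2.65 to 3.40 TPM (log2 differences 0.24 and 0.36, adjusted p = 0.221 and 0.0660). Klf15 measured 7.08 to 11.5 TPM against 8.18 to 9.85 TPM, and Klf5 0.486 to 0.938 TPM against 0.609 to 0.822 TPM. The ranges of these 4 members overlapped with the sedentary ranges. Thus the members fell into strongly raised (Klf2, Klf4), moderately raised (Klf6, Klf10), weakly raised (Klf3) and uncalled (Klf5, Klf9, Klf13, Klf15) genes at 0 h, with Klf11 at the limit of a call.

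The summed endothelial markers (10 genes, among them Pecam1 and Cdh5) ranged from 108.6 to 124.7 TPM in the 0 h libraries and from 100.4 to 125.2 TPM in sedentary ones. Of those 10 markers Kdr alone was called, and it was lower (log2 change -0.66 in untrained and -0.59 in trained muscle). Without the shared library none of the 10 was called in either group. The part of endothelial content in the Klf2 and Klf4 values was not tested. The summed macrophage markers ranged from 30.6 to 36.0 TPM at 0 h in untrained and from 30.6 to 34.7 TPM in trained muscle, against 24.4 to 27.6 TPM in sedentary muscle, with none of the 7 tested of 9 called. The part of macrophage content in the 0 h values was not tested. Neutrophil markers summed to 1.11 to 1.87 TPM in the group means, and none of these 6 genes passed the filter. The summed muscle fibre markers were 61334 to 67535 TPM in the 0 h libraries and 50910 to 59114 TPM in sedentary ones, without overlap, and of the 6 genes Myh1 alone was called (higher in trained muscle, log2 change 0.64). The mitochondrial genome took 37.7% to 40.6% of the total at 0 h against 42.2% to 46.9% in sedentary muscle, again without overlap. When values were rescaled without the mitochondrial genome and the 10 most abundant genes, Klf2, Klf4, Klf6 and Klf10 were still called in both 0 h groups. The part of fibre content in these values was not tested.

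**Figure D3:**
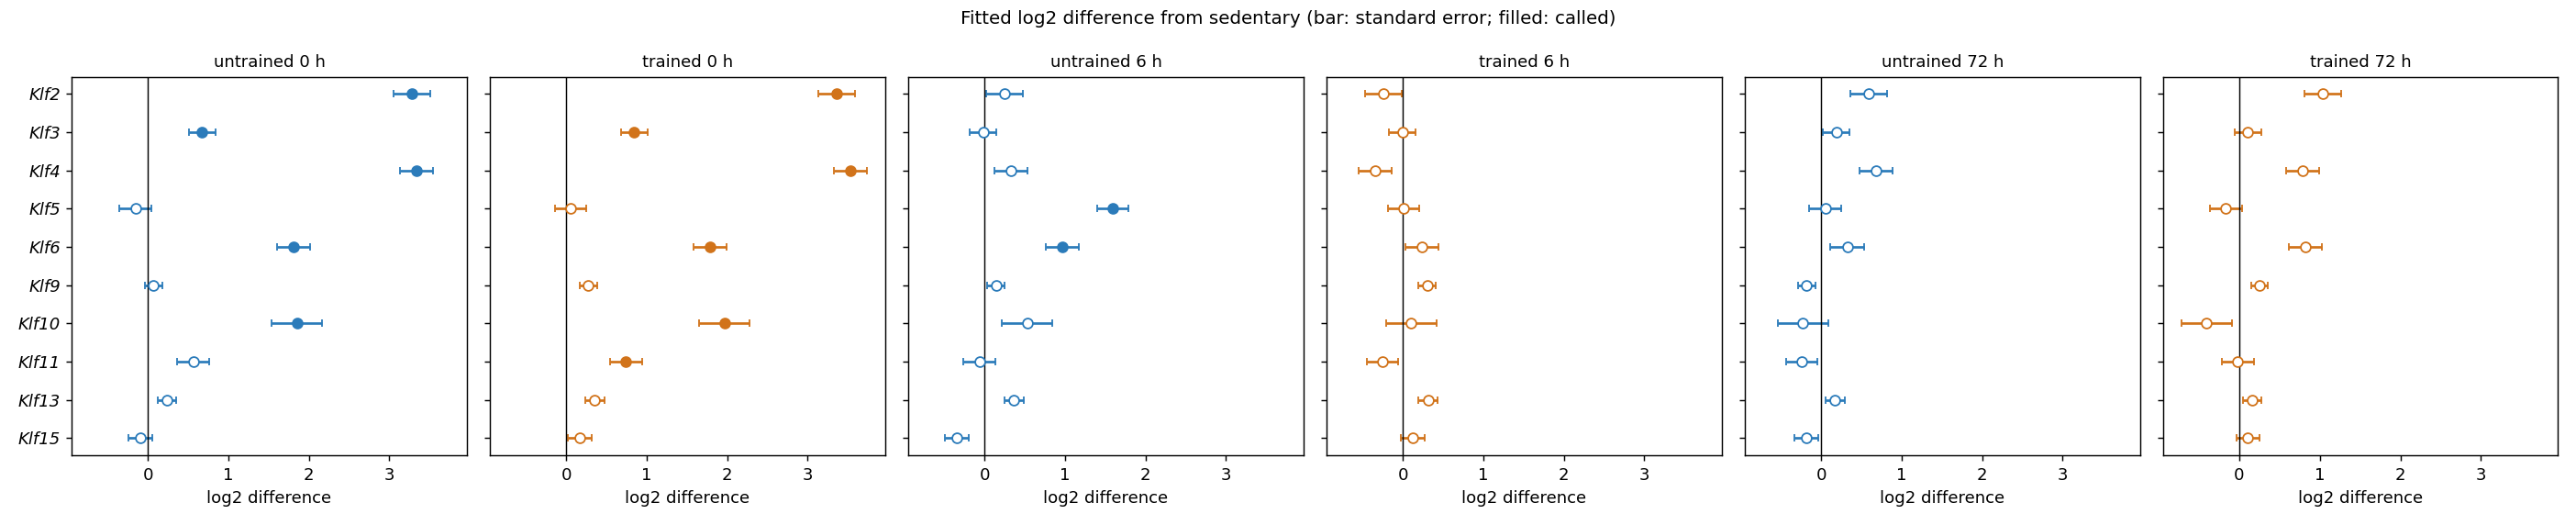
Fitted log2 difference from sedentary muscle (x axis) of each member (y axis) in the 6 exercised groups, with the standard error as a bar and called differences as filled points. Called points lie at 0 h in both panels and, at 6 h, in untrained muscle only for Klf5 and Klf6.

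By 6 h most of the raised members were back near the sedentary level. From 0 to 6 h Klf2, Klf3, Klf4, Klf6 and Klf10 fell in both untrained and trained muscle. In untrained muscle these 5 were called lower beside 2.60% of all tested genes, and Klf5 was called higher beside 2.04%. In trained muscle 6 were called lower, the same 5 and Klf11, beside 4.94%. The 0 and 6 h mice were different animals, so these are differences between groups and not courses within a mouse.

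Klf2 fell to 2.23, 4.49 and 3.83 TPM in untrained and 2.19, 2.56 and 2.07 TPM in trained muscle, a log2 change from 0 h of -3.03 (SE 0.23, adjusted p = 5.95e-07) and -3.60 (SE 0.23, adjusted p = 5.21e-08). Klf4 fell to 1.70, 3.85 and 2.64 TPM in untrained and 1.38, 1.57 and 1.40 TPM in trained muscle. The log2 change was -3.01 (SE 0.20, adjusted p = 2.48e-07) and -3.88 (SE 0.20, adjusted p = 5.85e-09). The 3 trained 6 h libraries of Klf4 lay below all sedentary libraries, although the difference from sedentary muscle was not called (log2 difference -0.34, adjusted p = 0.320).

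Klf6 fell by 1.55 on the log2 scale in trained muscle (adjusted p = 0.000108) and by 0.84 in untrained muscle (adjusted p = 0.0158). The untrained fall was not called without untrained 0 h replicate 2 (adjusted p = 0.0568) or without untrained 6 h replicate 1 (0.0707). Klf10 fell by 1.86 (adjusted p = 0.000686) in trained and by 1.32 (adjusted p = 0.0121) in untrained muscle. Its untrained call was lost without the shared library (0.0668 with it removed from both 0 h groups, 0.0620 from the untrained group alone) and without untrained 6 h replicate 3 (0.0570). Klf3 fell by 0.85 (adjusted p = 0.00199) in trained and by 0.69 (adjusted p = 0.0125) in untrained muscle, the latter not called without untrained 6 h replicate 1 (adjusted p = 0.0540). Klf11 fell by 0.99 (adjusted p = 0.00240) in trained muscle, a call kept with no filter on low values. In untrained muscle its log2 difference was -0.63 (adjusted p = 0.0519), which became a call without untrained 6 h replicate 2 (adjusted p = 0.0265).

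Klf5, a factor tied to proliferation, smooth muscle remodelling and muscle lipid metabolism, followed a course of its own. In sedentary muscle it measured 0.822, 0.697 and 0.609 TPM, and in the 5 libraries at 0 h 0.486 to 0.938 TPM. At 6 h it measured 2.14, 4.84 and 2.90 TPM in untrained but 0.863, 0.555 and 0.755 TPM in trained muscle. At 72 h all 6 libraries were again between 0.540 and 0.812 TPM. Untrained muscle at 6 h was thus the only group whose libraries lay above those of each other group. The log2 change from sedentary was 1.59 (SE 0.20, adjusted p = 5.97e-05), and from untrained 0 h 1.75 (SE 0.20, adjusted p = 3.07e-05). The 3 libraries themselves spread from 2.14 to 4.84 TPM, and where the fit held only the 2 groups compared, the difference from sedentary was not called (adjusted p = 0.0603). With no filter on low values it was called (adjusted p = 0.000120), and so was the rise from untrained 0 h.

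Klf6 was the other member still above sedentary muscle at 6 h, again in untrained mice. Its libraries measured 4.71, 9.68 and 6.41 TPM there, all above the sedentary libraries (log2 change 0.97, SE 0.21, adjusted p = 0.00704), against 3.83, 3.36 and 4.32 TPM in trained muscle. With only the 2 groups compared in the fit the adjusted p was 0.185. In untrained muscle at 6 h 2 members were called higher than sedentary, beside 3.53% of all tested genes. In trained muscle at 6 h limma called no member against sedentary, with 2 members (Klf9 and Klf13) at an unadjusted p below 0.05, beside 3.85% of all tested genes called in either direction and 2854 of 11819 at that unadjusted p. Klf13 lay above all sedentary libraries at 6 h in both, at 3.45 to 4.56 TPM (untrained, log2 difference 0.37, adjusted p = 0.0603) and 3.47 to 4.41 TPM (trained, 0.31, adjusted p = 0.105).

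The untrained 6 h libraries varied in cell type markers. Summed macrophage markers ranged from 25.9 to 54.6 TPM there against 24.4 to 27.6 TPM in sedentary and 20.8 to 29.2 TPM in trained 6 h libraries, and Cd68 and Csf1r were called higher (log2 changes 1.62 and 0.61). Summed fibroblast markers ranged from 163.8 to 429.5 TPM in untrained 6 h libraries against 271.2 to 314.9 TPM in sedentary ones, with none of them called. Summed adipocyte markers ranged from 19.8 to 88.2 TPM against 20.3 to 35.1 TPM. Smooth muscle and pericyte markers summed to 67.4 to 74.4 TPM against 75.2 to 93.6 TPM, without overlap and with none of the 6 called. In trained muscle at 6 h, 2 of 8 fibroblast markers were called lower than sedentary, beside 1.44% of all tested genes. Against trained 0 h 3 were called lower, beside 4.94%. The part of these markers in the values of Klf5, Klf6 and the other members at 6 h was not tested.

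At 72 h the largest differences from sedentary in untrained muscle were those of Klf4 and Klf2, and neither was called. There limma called no member against sedentary, with 2 (Klf2 and Klf4) at an unadjusted p below 0.05, beside 0.00846% of all tested genes (1 of 11819) called and 682 at that unadjusted p. Klf4 measured 3.54, 3.77 and 3.13 TPM, all above the sedentary libraries (log2 difference 0.68, adjusted p = 0.663). Klf2 had a log2 difference of 0.59 (adjusted p = 0.809), and its libraries overlapped with the sedentary ones. With so few genes called, a missing call does not show a return to the sedentary level. Between trained and untrained muscle at 72 h Klf4 differed by 0.10 (adjusted p = 0.866). From 6 to 72 h in untrained muscle Klf5 alone was called lower (log2 change -1.54, SE 0.20, adjusted p = 9.73e-05), beside 2.83% of all tested genes. That call was kept with no filter on low values and lost in a fit of these groups alone. Klf6 differed by -0.64 (adjusted p = 0.0683), and without untrained 6 h replicate 1 by -0.87 (adjusted p = 0.0120, called).

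In trained muscle the values of Klf2 and Klf4 at 72 h were above those at 6 h. Klf2 measured 6.48, 6.25 and 5.88 TPM at 72 h, a rise from 6 h of 1.28 on the log2 scale (SE 0.23, adjusted p = 0.00201). Klf4 measured 4.18, 4.38 and 2.90 TPM, a rise of 1.13 (SE 0.20, adjusted p = 0.00205). These 2 members were called higher beside 0.956% of all tested genes, and no alternative ended either call. Of 8 fibroblast markers, Col1a2 (log2 change 0.87, adjusted p = 0.0368) and Lum (0.74, adjusted p = 0.00289) were also called higher at 72 h than at 6 h, while none of the 10 endothelial markers and none of the 7 tested macrophage markers was called. The part of fibroblast content in the Klf2 and Klf4 values was not tested. Klf6 at 5.11, 6.31 and 6.60 TPM had a log2 difference from 6 h of 0.58 (adjusted p = 0.0986). Against sedentary muscle limma called none of the 10 in trained muscle at 72 h, with 4 (Klf2, Klf4, Klf6 and Klf9) at an unadjusted p below 0.05, beside 0.169% of all tested genes called and 1379 of 11819 at that unadjusted p. The libraries of those 4 did not overlap with the sedentary libraries, as for 19.4% of all tested genes. The log2 difference was 1.03 for Klf2 (adjusted p = 0.0652), 0.82 for Klf6 (0.103), 0.78 for Klf4 (0.106) and 0.25 for Klf9 (0.380). Klf2 was called without sedentary replicate 3 (log2 change 1.31, adjusted p = 0.0296), the sedentary library in which it was highest. Under median-of-ratios scaling Klf2, Klf4 and Klf6 were all called (adjusted p = 0.0305, 0.0483 and 0.0481).

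The comparison of trained with untrained muscle at each time asked whether levels after the bout differed with 12 weeks of wheel running. No library came from trained mice without a bout, so a difference present at rest and an altered response cannot be told apart. Each bout ended at exhaustion, so a longer or faster bout in trained mice cannot be told apart from these either. At 0 h no member was called. There the shared library carries no information on the difference and was left out, so 2 libraries stood against 2. Limma called 0 of 11819 tested genes (0%), with 528 at an unadjusted p below 0.05, 2 of them members (Klf9 and Klf15). The log2 difference was 0.12 (SE 0.28) for Klf2, 0.29 (SE 0.26) for Klf4, -0.03 (SE 0.26) for Klf6 and 0.17 (SE 0.38) for Klf10. With standard errors of this size, a p that misses the threshold does not show that the groups were alike.

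At 6 h Klf5 was lower in trained muscle by 1.58 on the log2 scale (SE 0.20, adjusted p = 0.000201), with means of 0.725 ± 0.156 and 3.29 ± 1.40 TPM. It was the 1 member called lower, beside 1.46% of all tested genes. In a fit of these groups alone the call was lost (adjusted p = 0.160). Klf5 passed the filter on low values only through untrained 6 h, and with no such filter the call was kept. Klf6 (-0.73, adjusted p = 0.0594) and Klf4 (-0.67, adjusted p = 0.0757) had lower values in all 3 trained libraries than in any untrained one, and Klf2 a difference of -0.49 (adjusted p = 0.264). Without untrained 6 h replicate 1, the untrained library with the lowest Klf2, Klf4, Klf5 and Klf6, all 4 were called: Klf6 (-0.96, adjusted p = 0.00908), Klf4 (-0.92, 0.00649), Klf2 (-0.75, 0.0465) and Klf5. Klf15 stood higher in all 3 trained libraries (9.26, 12.2 and 8.50 TPM against 8.31, 6.64 and 6.20 TPM, log2 difference 0.47, adjusted p = 0.0832). The libraries of 4 members (Klf4, Klf5, Klf6 and Klf15) did not overlap between the groups, as for 18.9% of all tested genes.

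At 72 h limma called no member, with 2 (Klf6 and Klf9) at an unadjusted p below 0.05, beside 0.245% of all tested genes called and 1769 of 11819 at that unadjusted p. Klf9 measured 26.8, 27.5 and 29.2 TPM in trained against 22.0, 19.4 and 20.3 TPM in untrained muscle (log2 difference 0.43, SE 0.11, adjusted p = 0.0908). Klf15 measured 9.65, 9.63 and 9.96 TPM against 8.41, 8.83 and 6.58 TPM (0.29, adjusted p = 0.366). Klf6 (0.50, adjusted p = 0.278) and Klf2 (0.44, adjusted p = 0.379) were also higher in every trained library, and Klf5 lower in every one (-0.22, adjusted p = 0.652). The libraries of these 5 members did not overlap between the groups, as for 28.5% of all tested genes.

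Klf9 and Klf15 differed in the same direction at each time, so their difference was also tested as 1 contrast over the means of the 3 times, without the shared library. This contrast was chosen after their values were seen. Klf9 was higher in trained muscle by 0.30 on the log2 scale (SE 0.06, adjusted p = 0.0291) and Klf15 by 0.38 (SE 0.09, adjusted p = 0.0486). An adjusted p below 0.05 was reached by 2.01% of all tested genes (237), and both changes were under 1.5-fold and so were not calls. Leaving out any 1 exercised library kept the difference between 0.27 and 0.34 for Klf9 and between 0.33 and 0.43 for Klf15, and the adjusted p reached 0.0951 and 0.122. Klf5 had a difference of -0.49 (adjusted p = 0.0588), which came mostly from 6 h.

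Some clock genes also differed between trained and untrained muscle. At 72 h 2 of 16 tested were called higher in trained muscle and 1 lower, beside 0.245% of all tested genes called in either direction. Per1 measured 8.14 ± 1.79 TPM in trained against 2.08 ± 0.780 TPM in untrained muscle at 72 h (log2 change 1.76, adjusted p = 0.0125), Ciart was higher (2.08, adjusted p = 0.00679) and Arntl lower (-1.51, adjusted p = 0.0462). At 6 h Nr1d1 alone of the 16 was called, lower in trained muscle (-1.08, adjusted p = 0.00108), beside 1.46% of all tested genes called lower. The time of day at which each group was collected was not given in the sources used here, and its part in the Klf2, Klf4, Klf9 and Klf15 values was not tested.

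**Figure D4:**
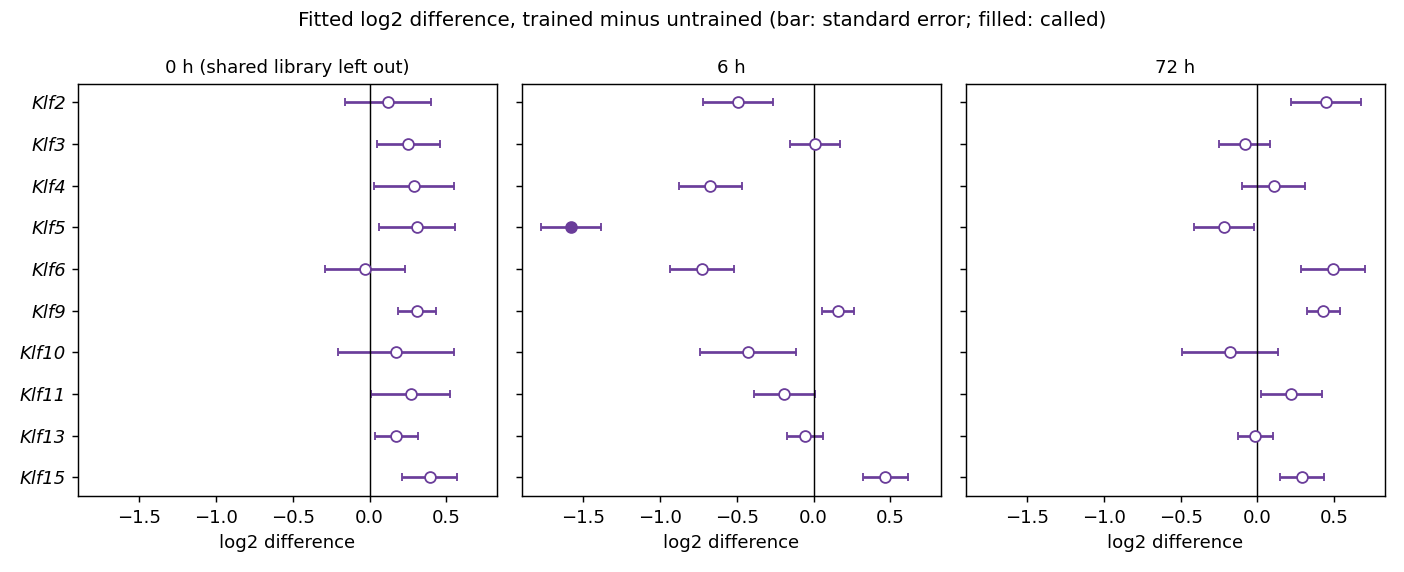
Fitted log2 difference of trained from untrained muscle (x axis) of each member (y axis) at 0, 6 and 72 h, with the standard error as a bar and called differences as filled points. The 1 filled point is Klf5 at 6 h (-1.58), and Klf9 and Klf15 lie to the right of 0 in all 3 panels.

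Across the 7 groups the highest mean was at trained 0 h for Klf2, Klf3, Klf4, Klf10 and Klf11, each next to untrained 0 h. For Klf2 and Klf4 the trained 72 h group came next (6.20 ± 0.303 and 3.82 ± 0.803 TPM) and trained 6 h was lowest (2.27 ± 0.257 and 1.45 ± 0.105 TPM). The ratio of highest to lowest group mean was 14.6 for Klf2 and 19.5 for Klf4. In the order of the means, the untrained 0 h and trained 72 h neighbours did not overlap for either gene, nor did sedentary and trained 6 h for Klf4 or trained 72 h and untrained 72 h for Klf2, while the 2 neighbouring 0 h groups, which share a library, overlapped. For Klf9, Klf13 and Klf15 the libraries of all neighbouring groups overlapped. Klf2 was called in 6 of the 14 comparisons, Klf4 in 6, Klf6 in 6, Klf3 in 5, Klf10 in 5, Klf5 in 4, Klf11 in 3, and Klf9, Klf13 and Klf15 in none. These comparisons share groups and are not independent.

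Among protein-coding tested genes, the one whose pattern over the 20 distinct libraries was most like that of Klf2 was Klf4, and the reverse (Pearson r of log2 values 0.988). The 5 libraries at 0 h lie apart from the rest and carry much of such a value. Over the 15 other libraries the pair still had r = 0.915. Next for both came Pxdc1 (r = 0.976 with Klf2 and 0.982 with Klf4) and Cdr2 (0.971 and 0.979), which fell to 0.796 and 0.805, and 0.783 and 0.814, over the 15 libraries. Klf6 was most like Plk3, a stress-responsive polo-like kinase (r = 0.945, and 0.816 over the 15), followed by Ednrb (0.938) and Coq10b (0.928).

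Klf10 was most like the immediate early genes Arc (r = 0.930), Btg2 (0.925) and Zfp36 (0.917), and Klf11 most like Naf1 (0.924), Adamts1 (0.890) and Maff (0.867). Over the 15 libraries outside 0 h these values were 0.741, 0.690 and 0.537 for Klf10, and 0.761, 0.599 and 0.460 for Klf11. Klf3 was most like Tubb2a (0.936), Gfpt2 (0.935) and Pik3c2a (0.928). Klf5 was most like Zswim4 (0.973), 1110002E22Rik (0.937) and Enah (0.933). Without the 3 untrained 6 h libraries these were 0.661, 0.526 and 0.367. Klf9 was most like Klhl21 (0.858), Eif3j1 (0.805) and Foxo3 (0.801), Klf13 most like Hr (0.869), Mapkapk3 (0.852) and Hipk1 (0.849), and Klf15 most like Gcdh (0.778), an enzyme of lysine and tryptophan breakdown, Gstk1 (0.727) and Pnpla7 (0.724). The values share libraries and groups and are descriptions only.

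**Figure D5:**
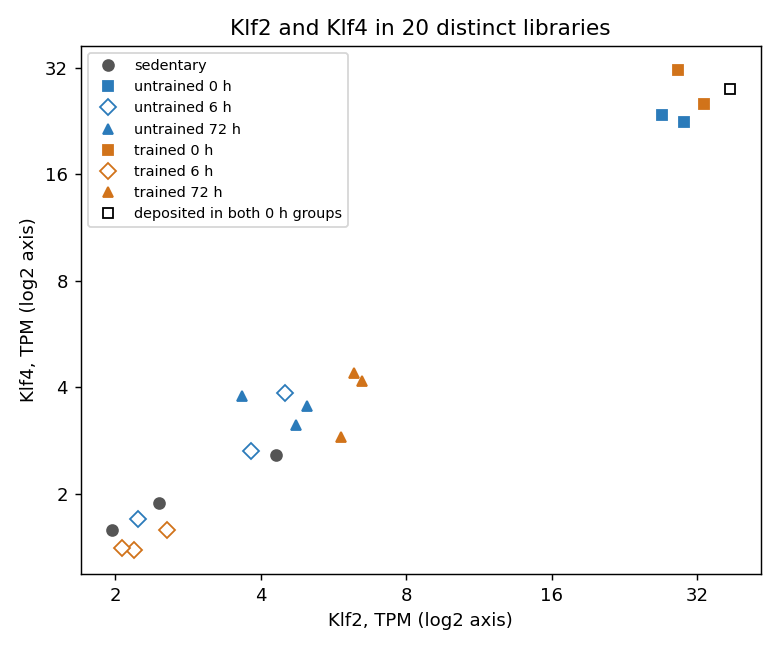
Klf2 (x axis) against Klf4 (y axis), both in TPM on log2 axes, in the 20 distinct libraries, with symbols for groups and the library deposited in both 0 h groups drawn as an open black square. The 5 libraries at 0 h lie above 22 TPM for both genes, and the other 15 lie below 6.5 TPM.

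Other genes of the same pathways were counted by list. Of the 7 KLF genes outside the set, Klf7 and Klf12 passed the filter and neither was called against sedentary muscle. Klf7 was close to the fold limit at 0 h (untrained log2 difference 0.55, adjusted p = 0.0125, and trained 0.54, adjusted p = 0.0127), was called in both without the shared library, and fell from 0 to 6 h in untrained (-0.72, adjusted p = 0.00121) and trained muscle (-0.77, adjusted p = 0.000494). Klf12 averaged 10.6 TPM over the 21 columns, above 8 of the 10 members. Of the 9 related SP genes 5 were tested, and of the 9 KLF cofactors (among them Ctbp1, Ctbp2, Sin3a and Sin3b) all 9. None of either list was called in any comparison with sedentary muscle. The cofactor list holds the corepressors that Klf3, Klf9, Klf10 and Klf11 are known to recruit.

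Of 5 endothelial genes known as Klf2 and Klf4 targets, Nos3, S1pr1 and Thbd were tested. Thbd, which encodes the anticoagulant receptor thrombomodulin, rose from 2.34 ± 0.378 TPM in sedentary to 6.74 ± 1.01 TPM in untrained (log2 change 1.35, adjusted p = 9.30e-05) and 7.40 ± 0.578 TPM in trained muscle at 0 h (1.48, adjusted p = 3.38e-05). S1pr1, a sphingosine-1-phosphate receptor, rose by 0.87 and 1.12. Nos3, endothelial nitric oxide synthase, was called in trained muscle only (0.60, adjusted p = 0.00275), the difference between the groups not being called. Without the shared library 2 of the 3 were called in each. None was called at 6 or 72 h.

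Among TGF-beta response genes, Skil, which encodes a Smad corepressor, rose at 0 h. The log2 change was 0.89 in untrained (adjusted p = 0.000408) and 0.99 in trained muscle (adjusted p = 0.000154). Smad3, a signal transducer of the pathway, was called higher in trained muscle at 0 h (0.68, adjusted p = 0.0150), the difference between trained and untrained muscle not being called. Tgfb2, a ligand of the pathway, measured 4.88 ± 1.51 TPM in trained and 8.64 ± 2.53 TPM in untrained mice at 6 h and was called lower in the former (-0.76, adjusted p = 0.0459). All 3 calls of Skil and Smad3 at 0 h were kept without the shared library.

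Of 14 genes known to be induced by glucocorticoids, 8 were called higher at 0 h in untrained and 8 in trained muscle, 9 and 7 at 6 h, 0 and 1 at 72 h, and none lower. The shares of all tested genes called higher were 2.97% and 3.39% at 0 h and 3.53% and 2.41% at 6 h. The list includes Fkbp5, Tsc22d3 and Mt2, and the largest 0 h change was that of Ddit4, an inhibitor of mTORC1 (log2 change 4.10 in untrained and 4.26 in trained muscle). The same counts were found at 0 h without the shared library. Klf9 and Klf15, which respond to the same receptor in other settings, were not called at any of these times. Of 17 clock genes 16 were tested, with 3 called higher in untrained muscle at 0 h, and 4 higher and 1 lower in trained muscle. Per1, which is on both lists, rose from 2.01 ± 0.773 TPM to 17.5 ± 3.30 and 20.4 ± 6.98 TPM at 0 h.

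Of 15 amino acid catabolism genes, the pathway most often tied to Klf15, none was called at 0 or 72 h. At 6 h Ppm1k, the phosphatase that activates branched-chain keto acid dehydrogenase, was called lower in untrained muscle (2.96 ± 0.899 against 8.01 ± 2.39 TPM, log2 change -1.29, adjusted p = 0.0293). Gpt, alanine aminotransferase, was called higher in trained muscle (15.4 ± 3.53 against 9.08 ± 0.999 TPM, log2 change 0.71, adjusted p = 0.0139) and was higher there than in untrained muscle at 6 h (1.10, adjusted p = 0.00145). At that time Klf15 was 9.99 ± 1.96 TPM in trained and 7.05 ± 1.11 TPM in untrained muscle, a difference not called.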

How the data were processed

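RNA was isolated from quadriceps of sedentary, untrained and trained mice, 3 libraries in each of 7 groups. Per the study's methods and processing notes, the authors aligned paired-end reads with STAR 2.7.9 to GRCm39 and quantified with Salmon 1.5.0, and they deposited length-normalized TPM values in 1 table of 21 columns. DESeq2 is also listed, but the deposited values are not counts, so read depth is unknown and no count model was run. Whether the libraries of a group came from separate mice in every case cannot be read from the labels, and p-values measure the spread between libraries.

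From the deposited TPM, log2(TPM + 0.5) was fitted with limma 3.58.1 (R 4.3.3), with trend and 1 residual spread over the 7 groups, for symbols with a mean of at least 1 TPM. P-values were adjusted by the Benjamini-Hochberg method over 11819 genes, and a call needed an adjusted p below 0.05 and a 1.5-fold change on that scale. The fit was tested on simulated data. Trained and untrained muscle at 0 h were compared without the shared library. Alternatives were the pseudocount, the filter, the scaling, the groups in the fit, a replicate block and leaving out each library. The contrast over 3 times was added after the data were seen. Named genes were the 10 members, called genes of the lists, and the 3 protein-coding genes most alike to each member. The members and lists were chosen with earlier results of these data known. Motifs were searched on both strands of RefSeq promoters (GRCm38.p6). Counts over the TGF-beta list are not reported here.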

Additional observations from a re-analysis of the deposited data

Results flagged for a closer look

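Klf3 at 0 h had 1 library far from the others. Over the 5 distinct libraries, trained 0 h replicate 2 measured 4.97 TPM and the others 3.44 to 3.83 TPM, so that the gap to the nearest was 0.749 of the range, above Dixon's critical value for 5 values. Klf3 was the 1 member of 10 with such a library at 0 h. Chance gives about 1 in 20 for each gene examined, so 1 among 10 members is no clear excess. The 5 values pool untrained and trained muscle, and the far library is a trained one.

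Klf5 differed between trained and untrained muscle at 6 h by -1.58 on the log2 scale in the test of the difference itself (adjusted p = 0.000201, limma), which equals the difference of the 2 effects against the shared sedentary group. Klf5 passed the filter on low values only through untrained 6 h. The call was kept with no filter and lost in a fit of these groups alone (adjusted p = 0.160).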

How the results depend on the processing

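No called change of a member reversed its direction. Of the 140 values of members over the comparisons, 31 changed sign under some alternative or left-out library, none of them called and each at most 0.24 in size (log2). The number of members called in trained 6 h minus untrained 6 h (1) became 0 with a filter at a mean of 5 TPM and with only these groups in the fit, 3 under median-of-ratios scaling, 2 with the replicate block, and 1 to 4 with 1 library left out. In untrained 6 h minus sedentary (2) it became 1 with the 5 TPM filter, which drops Klf3, Klf5, Klf11 and Klf13, and 0 with only these groups. In untrained 72 h minus 6 h (1) it became 0 with that filter and with only these groups, 2 under median-of-ratios scaling, and 1 to 2 with 1 library left out. In untrained 6 h minus 0 h (6) it became 3 with only these groups. In trained 72 h minus sedentary (0) it became 1 with the 5 TPM filter, 3 under median-of-ratios scaling, 1 when rescaled without the mitochondrial genome and the 10 most abundant genes, and 0 to 1 with 1 library left out. The cause of these shifts was not tested. The 5 TPM filter and the fits of only these groups or without 1 library held fewer genes or libraries. Median-of-ratios scaling and the replicate block held all of them. The other 208 recomputed counts stayed within 1.5 times. The labels do not say whether the replicate numbers pair the samples, and the correlations do not settle it. Over 62 same-number pairs of libraries from different groups the median correlation of deviations was 0.0180, with 4 above 0.1. Over 126 different-number pairs the median was -0.00516, also with 4 above 0.1. Of 21 columns, 13 correlated best with their own number. The block changed no other count of members by over 1.5 times. With 3 libraries a group and unknown read depth, differences under 1.5-fold in members near 1 TPM, such as Klf5 and Klf11, could not be resolved.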
